A study of Arabidopsis thaliana with 11 samples.

Results

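The genes described here are 33 Arabidopsis genes, known in the array annotation by their AT locus code alone, whose transcripts gave a strong signal in flowers and little or none in rosette leaves and stems. They were chosen by their signals: the lowest of the 4 flower arrays had to reach 100, and it had to be at least 8 times the highest of the 7 leaf and stem arrays. Signals under 28.1 (the dim limit, which is the 40th percentile of all deposited values) were set to 28.1 first. Of 11933 probe sets that name 1 gene by a locus code, 38 met these conditions, and 5 of them (AT1G66850, AT2G47050, AT3G07820, AT5G50030 and AT4G23680) were left out by name. Because these values chose the genes, the difference between flower and the other organs is given as a description and was not tested.

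The arrays were Affymetrix ATH1 arrays, which measure each transcript with a set of short probes, hybridised with RNA of the wild-type accession Columbia-0 (Col-0), stock N1092. Rosette leaves came from plants 15 days past germination (3 arrays), and open flowers together with closed buds (4 arrays) and the top of the stem without siliques or pedicels (4 arrays) were taken at 29 days. The photoperiod was 16 h for all plants, the light 125 umol (per square metre and second) and the temperature 25 C in the day and 20 C in the night. Each title carries the code GC or GH. Leaf had 1 GC array and 2 GH arrays, flower had 2 per code, and so had stem. The descriptions name a greenhouse for the leaf GH arrays and a controlled system for all others, flower and stem GH included, so what the code means in flower is not settled by the labels. Leaf differs from flower in plant age as well as organ, and the labels do not say whether arrays of a group came from separate plants, so p-values cover no more than the spread among these arrays, and that spread may be technical.

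A flower holds sepals, petals, stamens and carpels, and a large part of what is transcribed there and nowhere else in the shoot belongs to the anther. The tapetum, the inner layer of the anther wall, makes the enzymes and lipids of the pollen wall and coat, and later breaks down. Maturing pollen then stores transcripts for the pollen tube, among them many of enzymes that modify pectin, the main polysaccharide of the tube tip. The files do not pair these locus codes with protein families. The families named below are general knowledge of the loci, given as background for 26 of the genes and assigned after the values were seen, and 7 genes are left without one.

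Markers of the organs gave mixed values. ATA27, a tapetum beta-glucosidase, had signals of 937 to 1082 in flower and at most 17.0 on any leaf or stem array. PLIM2a, an actin-bundling protein of pollen, had 251 to 363 in flower and at most 4.73 elsewhere. Over all 8 measured genes of the pollen list the summed signal was 851 to 1007 in flower, 145 to 208 in leaf and 622 to 944 in stem, so flower and stem overlapped. Most of the stem sum was ACT11, an actin, with 575 to 885 in stem and 213 to 354 in flower. The sum of 3 measured tapetum genes was 1120 to 1348 in flower and at most 29.3 elsewhere, and no floral organ identity gene was among those measured on probe sets of 1 gene. The summed signal of 3 measured leaf photosynthesis genes ran from 13410 to 14422 in leaf, from 7053 to 10138 in stem and from 2542 to 4132 in flower, and that of 3 secondary wall genes was 735 to 1637 in stem and at most 112 in flower or leaf. In this whole-organ RNA, fewer cells of a type and less RNA per cell cannot be told apart.

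On all 4 flower arrays the 33 genes lay far above the dim limit. Their mean flower signals ran from 261 to 4515, with a median of 428. The lowest flower signal of any of them was 228, since a gene under the limit elsewhere needed 224.8 in flower to reach 8 times the limit. Signals of different probe sets depend on their probes, so these means give no ranking of transcript amounts. Nearest inside the threshold were AT1G28375 at 8.10 times, AT1G20120 at 8.51 times and AT5G26700 at 8.62 times. Nearest outside were AT4G12890 at 7.64 times, AT4G02250 at 7.60 times and AT2G19000 at 7.17 times.

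**Figure D1:**
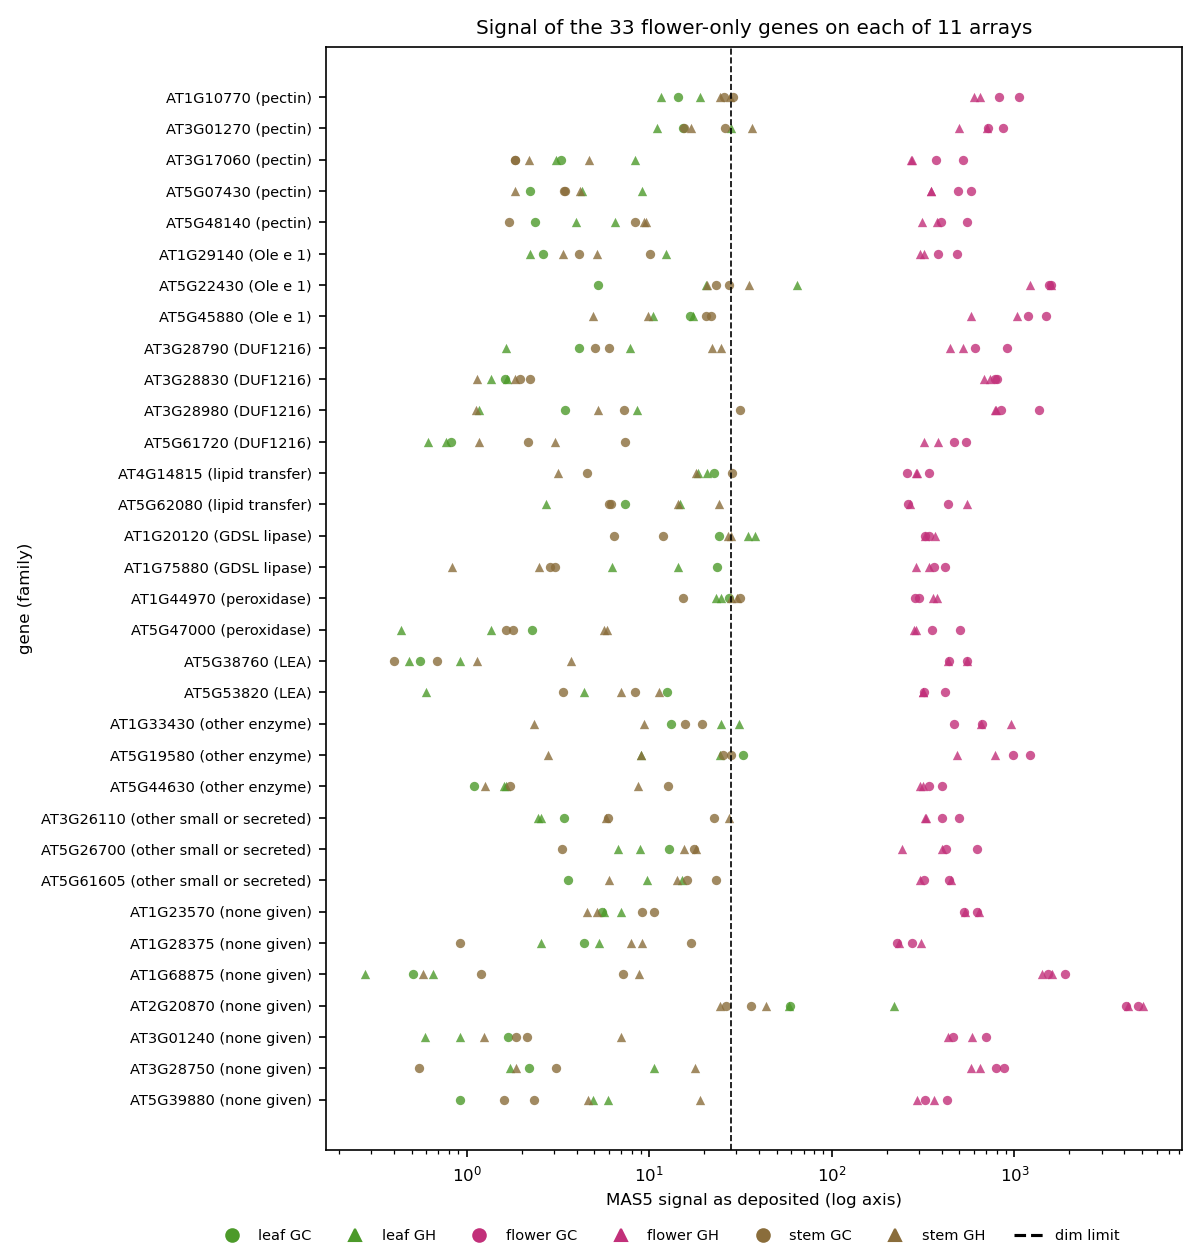
Deposited MAS5 signal (log axis) of the 33 genes on each of the 11 arrays, 1 row per gene with its family, coloured by organ and shaped by the GC or GH code, with the dim limit of 28.1 as a dashed line. The flower points all lie at 228 or above, while 23 genes have every leaf and stem point under the limit and AT2G20870 has all 3 leaf points above it.

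The pectin group has 5 genes. AT5G07430 and AT3G17060 belong to the pectin methylesterases, which remove methyl groups from pectin, and AT1G10770 belongs to the proteins that inhibit them. AT5G48140 is of the polygalacturonase family and AT3G01270 of the pectate lyase family, both of which cut the demethylated chain. AT3G17060 had signals of 370 and 522 on the GC flower arrays and 275 and 273 on the GH flower arrays, and 1.83 to 8.34 in leaf and stem. AT5G07430 had 580 and 492 on the GC flower arrays, 347 and 348 on the GH flower arrays and 1.84 to 9.19 elsewhere. Both were under the dim limit on all 7 leaf and stem arrays, which puts flower at least 12.4-fold above leaf for AT3G17060 and at least 15.3-fold for AT5G07430. Such a bound sets the mean flower log2 signal against the higher of the limit and each leaf array's own value. AT1G10770 had 827 and 1060 on GC and 648 and 604 on GH flower arrays, 11.5 to 19.1 in leaf and 24.3 to 28.7 in stem, where 1 of 4 arrays passed the limit. For AT5G48140 the flower signals were 394 and 547 (GC) and 376 and 313 (GH), against at most 9.58 elsewhere. AT3G01270 had 717 and 865 (GC) and 703 and 494 (GH) in flower, and passed the limit on leaf GH 2 (28.2) and stem GH 1 (36.6). In each of these 5 genes both GH flower arrays lay below both GC flower arrays, an order found in 17.5% of all 15718 probe sets kept by the filter (a signal above the dim limit on at least 3 of the 11 arrays) and in 20.3% of those with a lowest flower signal of at least 100.

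The pollen Ole e 1 family, named after an olive pollen allergen, consists of small secreted proteins of which many are found in pollen. AT5G45880 had 1184 and 1479 on the GC flower arrays and 1034 and 581 on the GH flower arrays, with 4.90 to 21.7 in leaf and stem, so that flower was at least 36.0-fold above leaf. AT1G29140 had 384 and 486 (GC) and 303 and 318 (GH) in flower, and at most 12.3 elsewhere. Both followed the order of the pectin genes, GH below GC, with flower GH 2 the lowest array for AT5G45880 and GH 1 for AT1G29140. AT5G22430 did not: its flower signals were 1541 and 1589 (GC) and 1222 and 1595 (GH), and it passed the dim limit on leaf GH 1 (64.4) and on stem GH 2.

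AT3G28790, AT3G28830, AT3G28980 and AT5G61720 share a domain of unknown function, DUF1216. AT3G28830 had the steadiest flower signals of these, 803 and 784 on GC and 736 and 683 on GH arrays, with 1.14 to 2.21 in leaf and stem. AT3G28980 had 845 and 1363 (GC) and 787 and 795 (GH), and its only value above the dim limit outside flower was 31.3 on stem GC 2. AT3G28790 had 607 and 911 (GC) and 521 and 444 (GH), and AT5G61720 had 465 and 544 (GC) and 382 and 319 (GH). All 4 again had both GH flower arrays below both GC flower arrays (17.5% of all probe sets kept, 20.3% of those at 100 or more), though for AT3G28830 the means differed by a ratio of only 0.894.

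Of 4 other families 2 members each were found. The lipid transfer family members, small proteins with a cavity for lipids, were AT4G14815, with 339 and 258 (GC) and 288 and 294 (GH) in flower, and AT5G62080, with 430 and 262 (GC) and 547 and 268 (GH). For AT5G62080 replicate 1 of each code was the higher array, and the codes overlapped. The GDSL lipase family, enzymes that cleave ester bonds, gave AT1G75880 with 419 and 362 (GC) and 288 and 341 (GH), and AT1G20120 with 340 and 322 (GC) and 366 and 324 (GH). AT1G20120 varied least of the 33 genes over the flower arrays, by 1.14-fold from lowest to highest, and passed the dim limit on leaf GH 1 (37.8) and leaf GH 2 (34.8). The peroxidases, haem enzymes of the cell wall, differed in the order of the codes: AT5G47000 had 353 and 502 (GC) and 281 and 290 (GH), while AT1G44970 had 301 and 287 (GC) and 356 and 376 (GH). AT1G44970 was the only gene of the 33 with both GH arrays above both GC arrays in flower. Of the late embryogenesis abundant proteins, which accumulate in drying tissues such as seed and pollen, AT5G53820 had 320 and 419 (GC) and 316 and 314 (GH), and AT5G38760 had 441 and 547 (GC) and 431 and 549 (GH).

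Among the remaining enzymes, AT5G19580 of the glyoxal oxidase family had 979 and 1210 on the GC flower arrays and 779 and 487 on the GH flower arrays. The terpene synthase family member AT5G44630 had 339 and 403 (GC) and 302 and 317 (GH). AT1G33430, of a galactosyltransferase family, showed another pattern, with 668 and 464 (GC) and 958 and 659 (GH), highest on flower GH 1 and lowest on flower GC 2. AT5G26700, of the cupin superfamily, had the widest flower range of the 33 genes, 2.59-fold, from 242 on GH 2 to 627 on GC 2. AT3G26110, which resembles an anther-specific protein, had 402 and 495 (GC) and 326 and 323 (GH). AT5G61605, a cysteine-rich peptide of the pollen coat, had 436 and 318 (GC) and 306 and 450 (GH), with no order by code.

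No family is given here for 7 genes. AT1G68875 had the highest bound, flower at least 57.0-fold above leaf and at least 57.0-fold above stem, with 1522 and 1902 (GC) and 1409 and 1612 (GH) in flower and 0.278 to 8.82 elsewhere. AT2G20870 had 4743 and 4081 (GC) and 4174 and 5062 (GH) in flower, and stood apart from the others outside flower: 58.8, 220 and 58.4 in leaf and, in stem, 24.5 to 43.3. AT3G28750 had 795 and 876 (GC) and 649 and 580 (GH), again GH below GC. AT3G01240, AT5G39880, AT1G23570 and AT1G28375 overlapped between the codes, with flower means of 543 ± 120, 351 ± 56.6, 581 ± 58.9 and 261 ± 37.4 (SD, n = 4).

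A comparison that the choice of genes did not use set the GH against the GC arrays within flower. Both GH arrays lay below both GC arrays in 19 of the 33 genes, both lay above in 1 gene, AT1G44970, and 13 genes overlapped. Over all 15718 probe sets kept, the GH arrays lay wholly below in 17.5% and wholly above in 19.4%. Among the 5584 of these with a lowest flower signal of at least 100 the shares were 20.3% and 19.2%. The mean log2 signal was lower in GH in 26 of the 33 genes (78.8%). The share was 47.3% over all probe sets kept and 48.7% over those with a lowest flower signal of at least 100. The median difference was -0.26 on the log2 scale against 0.02 over all probe sets kept. Of the other 52 probe sets that met the same signal conditions, 42 (80.8%) had a lower mean in GH, so this was not particular to the 33 genes. Their median was -0.23, with 17 wholly below and 3 wholly above.

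**Figure D2:**
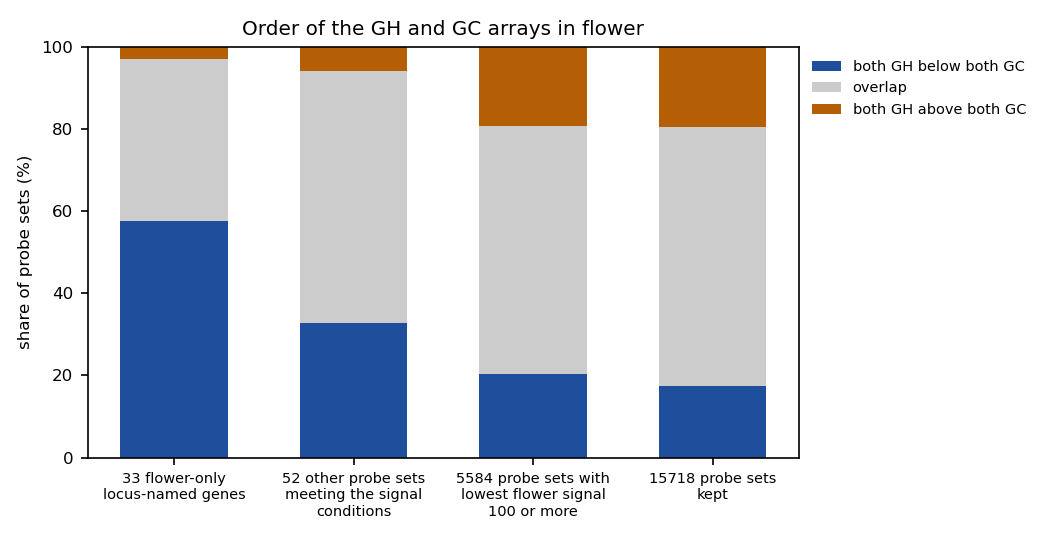
Share of probe sets (%) whose 2 GH flower arrays both lie below, overlap with or both lie above the 2 GC flower arrays, for the 33 genes, the 52 other probe sets that met the same signal conditions, the 5584 with a lowest flower signal of at least 100 and all 15718 kept. The share with GH below is 57.6% for the 33 genes and 32.7% for the 52 others, and 20.3% and 17.5% in the larger sets.

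No single gene of the 33 passed the test of this difference. In limma's linear model over all 11 arrays, with 1 mean per organ and code and Benjamini-Hochberg adjustment over all 15718 probe sets, 0 of the 33 genes were called at an adjusted p under 0.05, and the lowest adjusted p was 0.999. Of all probe sets 0.0254% were called, 4 in number. The largest differences were those of AT5G19580 (-0.82 ± 0.58 SE on the log2 scale), AT5G45880 (-0.77 ± 0.41), AT5G26700 (-0.73 ± 0.66), AT3G17060 (-0.68 ± 0.63) and AT3G28790 (-0.63 ± 0.61), and, upward, AT1G33430 (0.51 ± 0.55). They moved with single flower arrays. Without GH 2 the difference was -0.48 for AT5G19580, -0.36 for AT5G45880 and -0.37 for AT5G26700, and without GH 1 it was -1.19 for AT5G45880. Without GC 2 it was -0.43 for AT3G17060, -0.34 for AT3G28790 and -0.45 for AT5G26700. For AT1G33430 it was 0.25 without GC 2, 0.24 without GH 1 and 0.78 without GC 1 or GH 2. This model shares 1 spread per gene over all arrays, and the genes' leaf and stem values, mostly under the dim limit, scatter widely on the log2 scale: the median SE was 0.66, against 0.22 with values floored at the limit. In limma 0 of the 33 genes had an unadjusted p under 0.05, against 11 with the floor and 12 on the flower arrays alone. All of these were lower in GH. Over all probe sets the shares lower in GH at that level were 2.51%, 3.96% and 3.42%. For 23 of the 33 genes the floor made all 7 leaf and stem values equal, so these arrays added no spread to the fit. The 11 genes are therefore not read against the 3.96%. The lowest adjusted p of the 33 in limma was 0.483 with the floor and 0.800 on the flower arrays alone.

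The 4 flower arrays were not alike within a code either. Flower GC 2 was the highest array for 19 of the 33 genes, against 25.2% of all probe sets kept. Flower GH 2 was the lowest for 15 of the 33, against 4118 of the 15718 kept. The other 52 probe sets that met the signal conditions were alike, with GC 2 the highest in 26 and GH 2 the lowest in 27. The median deviation of the 33 genes from their own flower mean was 0.07 on GC 1, 0.29 on GC 2, -0.11 on GH 1 and -0.21 on GH 2 (log2), while over all probe sets kept it was between 0.00 and 0.02 on every flower array. Of the 5 pectin genes 4 were lowest on GH 2, and so were 3 of the 4 DUF1216 genes. AT1G20120, AT1G23570, AT1G33430 and AT5G62080 ran the other way, with their highest value on GH 1 and their lowest on GC 2. In all, GC 2 was the lowest flower array for 7 of the 33 genes.

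**Figure D3:**
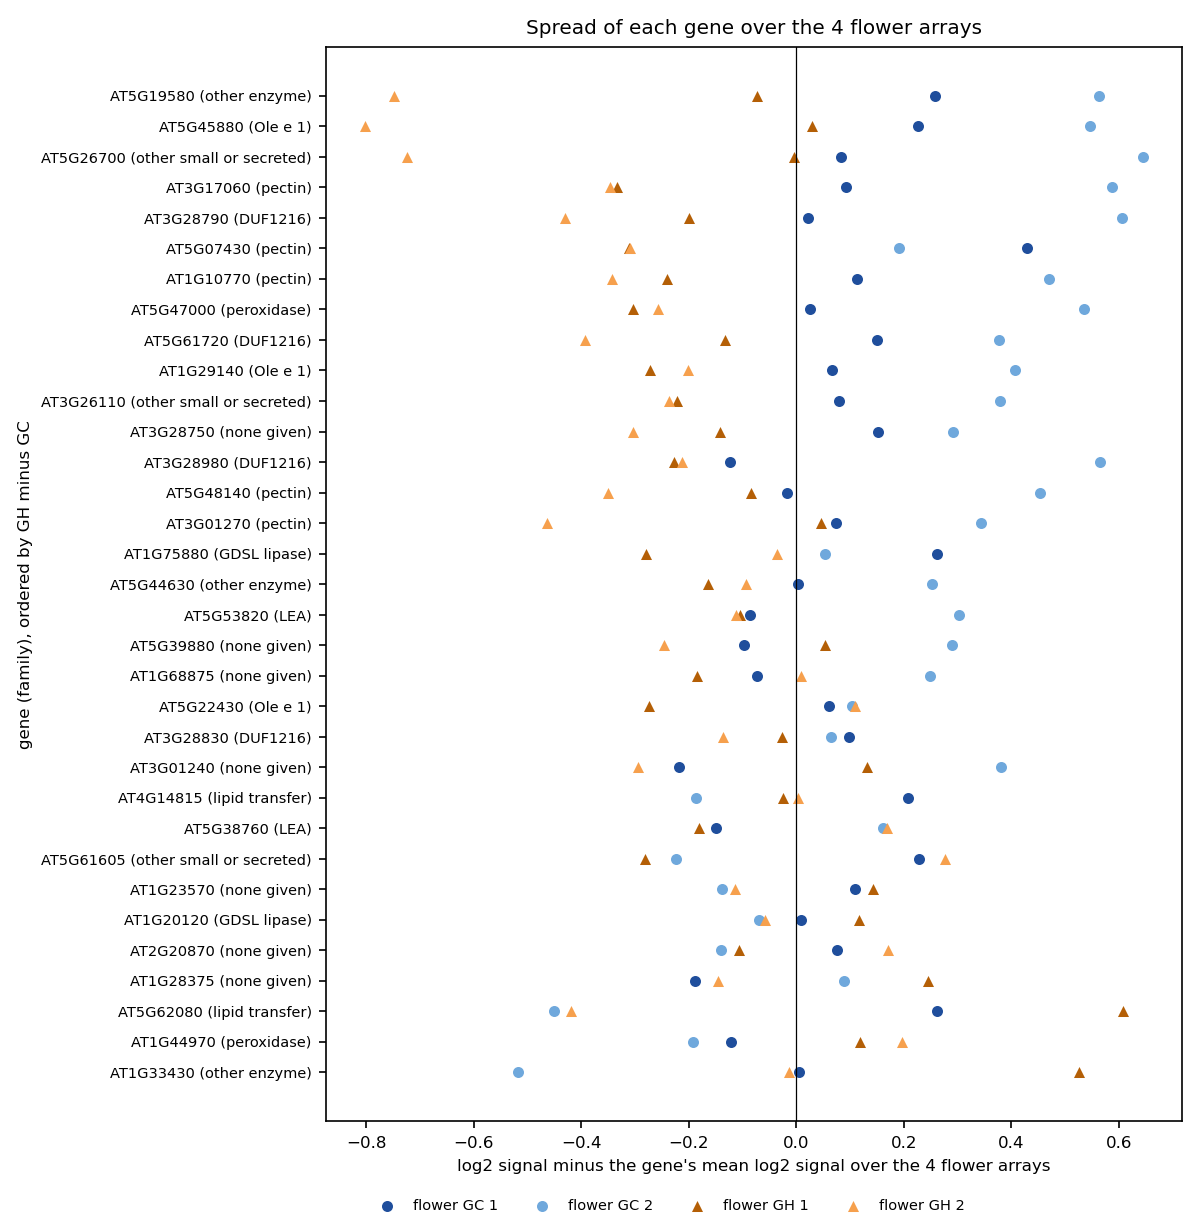
Log2 signal of each gene on the 4 flower arrays minus the gene's mean over them, genes ordered from the most negative to the most positive GH minus GC difference, circles for GC and triangles for GH. In 19 genes both triangles lie left of both circles, in AT1G44970 both lie right, and the widest ranges are those of AT5G26700, AT5G45880 and AT5G19580.

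Other genes of pollen and tapetum on probe sets of 1 gene, from marker lists, gave these values in the same comparison. Of 8 genes of mature pollen and the pollen tube, 7 had a lower mean in GH, 3 lay wholly below GC and 1 wholly above, with a median log2 difference of -0.20. Over all probe sets kept, 47.3% had a lower mean in GH, 17.5% lay wholly below and 19.4% wholly above. AtVEX1, a sugar transporter of the vegetative pollen cell, fell most of the 8, with 150 and 153 on GC and 68.9 and 88.6 on GH arrays. Its log2 difference was -0.95 ± 0.61 SE (limma, adjusted p = 0.999). The gene wholly above was ACT11, with 213 and 286 on GC and 322 and 354 on GH arrays. Of 3 tapetum and pollen wall genes, ATA27 (937 and 955 on GC, 1078 and 1082 on GH) lay wholly above GC, and AT5G07230 overlapped. AMS, a regulator of tapetum development, also lay above, close to the dim limit, with 33.1 and 17.6 on GC and 33.6 and 38.0 on GH. The filter kept 5 of the 8 and all 3 of the tapetum genes, and limma called 0 of these. Of 3 carpel and ovule genes, 1 had a lower mean in GH and all overlapped.

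One measure of RNA quality differed by code in flower. The mean log2 ratio of 3' to 5' signal over the control genes for actin, GAPDH and ubiquitin was 0.53 on both flower GC arrays and 0.90 and 0.80 on the flower GH arrays. Its part in the difference of the 33 genes was not tested. A fit over all arrays with this ratio as a covariate gave a median difference of -0.33, and 0 genes were called. With 1 mean per organ and code, that fit takes its slope from arrays of the same organ and code. Among these the ratio differed most between stem GH 1 (2.13) and stem GH 2 (0.24), where the 33 genes were mostly dim. The flower arrays by themselves cannot separate the ratio from the code, since both GH arrays had a higher ratio than both GC arrays. The highest ratio of all arrays was 2.13 on stem GH 1, where 1 of the 33 genes was above the dim limit.

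In leaf and stem the 33 genes were mostly under the dim limit. Of 231 leaf and stem values, 19 were above it, 9 of 99 in leaf and 10 of 132 in stem. On each leaf or stem array between 1 and 4 of the 33 genes passed the limit, while 57.5% to 58.8% of all probe sets did. Altogether 23 genes were under it on all 7 arrays, 27 on all leaf arrays and 25 on all stem arrays. Over these 27 genes the bound on flower against leaf ran from 9.23-fold to 57.0-fold, with a median of 14.2-fold. The summed signal of the 33 genes was 333, 550 and 374 in leaf and ran from 352 to 385 in stem, against 20752 to 25898 in flower, and the 550 on leaf GH 1 held the 220 of AT2G20870. Stem GH 1, whose actin 3' to 5' ratio was 19.6 against 0.781 to 2.90 on the other arrays, had 1 of the 33 genes above the limit and a sum of 379, inside the range of the other stem arrays.

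**Figure D4:**
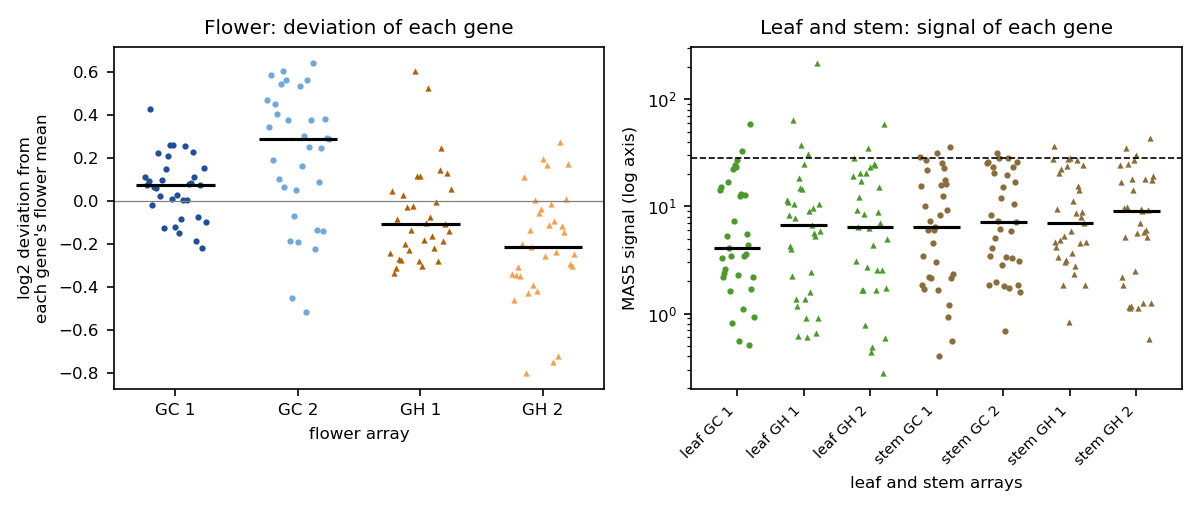
Left, log2 deviation of each of the 33 genes from its own flower mean on the 4 flower arrays; right, deposited signal (log axis) of the same genes on the 7 leaf and stem arrays with the dim limit of 28.1 dashed; black bars are medians over the genes. The medians on the left are 0.07, 0.29, -0.11 and -0.21, and those on the right lie between 4.13 and 9.05.

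Stem was also compared with leaf. The choice of genes had capped the signals of both organs, though it did not set 1 against the other, so this comparison was not independent of the choice. Leaf and stem also differed in plant age, so organ and age cannot be told apart here. The model used below fits 1 code term over all organs, although the descriptions name a greenhouse for the leaf GH arrays and not for stem GH. Only AT2G20870 was measured above the dim limit on every array of an organ other than flower: its signal was 112 ± 93.3 (SD, n = 3) in leaf and 32.6 ± 8.84 (SD, n = 4) in stem, where 2 of 4 arrays passed the limit. Every leaf array lay above every stem array. In limma's model with the code as a covariate it fell by 1.48 ± 0.39 SE in stem on the log2 scale (adjusted p = 0.0101). With the 3' to 5' ratio as a further covariate the call was lost in limma (-1.19, adjusted p = 0.0556). Fitted by limma on GC arrays only, with 1 leaf array, its difference was -0.93 (adjusted p = 0.0576). On GH arrays only it was -1.80 (adjusted p = 0.0587), so neither code alone gave the call. Without leaf GH 1, the array at 220, the difference was -0.89 and was still called. Of all probe sets 39.6% were called in this comparison, and 39.1% with values floored at the dim limit, where AT2G20870 was the 1 gene of the 33 called. The unfloored fit also called AT1G10770, AT1G68875, AT3G26110, AT5G61720 and AT1G75880, but these genes passed the filter through flower, and their leaf and stem signals were under the dim limit except for 28.7 on stem GC 1 for AT1G10770. Those calls are therefore not read as differences, and no direction or fold is given.

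The 33 genes lie on all 5 chromosomes, 9 on chromosome 1, 1 on chromosome 2, 8 on chromosome 3, 1 on chromosome 4 and 14 on chromosome 5. Gene order was taken from the TAIR10.1 assembly, and no coordinates are given because the files name no build. AT3G28790 and AT3G28830 are separated by 2 protein-coding genes, AT3G28750 and AT3G28790 by 4, and AT3G01240 and AT3G01270 are separated by 2. Next to AT3G28830 lies AT3G28840, with 236 and 193 (GC) and 146 and 145 (GH) in flower and at most 45.1 elsewhere. Between AT3G01240 and AT3G01270 lies AT3G01250, with 178 to 252 in flower and at most 8.64 elsewhere, below the 224.8 that the conditions needed. AT5G07420, next to AT5G07430, had 121 to 147 in flower and at most 11.4 elsewhere. Of 80 measured genes that are no members and lie within 3 protein-coding genes of one, 12 had every flower array above the dim limit and above every leaf and stem array, a share of 15.0%, as a description, against 7.62% of all 13513 probe sets of 1 gene. The 12 include AT1G23560, AT1G23580, AT1G23590 and AT1G23600, all neighbours of AT1G23570, with flower means from 54.7 to 77.5. They also include AT3G26100, whose lowest flower signal of 98.8 stood against 91.1 in leaf and stem. Neighbours of the same family can share sequence. None of the 33 probe sets is of the kinds marked as shared between genes (_s_at or _x_at), and cross-hybridisation was not tested.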

How the data were processed

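The deposited values are intensity values, 1 linear MAS5 signal per probe set, per the submitters' processing notes. Its version and scaling target were not found there. Trimmed by 2% at each end, every array averaged 100.0, and precision is limited by how few arrays there are. Of 22810 probe sets, 64 controls were left out of tests, 13513 name 1 gene, 503 several and 8730 none. Signals were taken to log2 as deposited and fitted in limma 3.58.1 (R 4.3.3; lmFit, eBayes with a trend) on the 15718 probe sets kept, which include all 33 genes, and tested on simulated data. A call is a Benjamini-Hochberg adjusted p under 0.05. GH against GC in flower used 1 mean per organ and code, and stem against leaf used organ plus code. Errors of signals are SD over arrays. The genes, families and marker lists were chosen with earlier results of these data known. The naming rule took the genes with the highest mean flower signal overall and per family, those nearest the threshold, those called, those with the widest and narrowest flower spread and neighbours. Genes outside this rule are given as well, so that all 33 have values. Product names planned for sorting the genes into classes, and sequences, were not used here, so families are background knowledge. Marker lists held 80 genes, of which 20 were on probe sets of 1 gene, and no floral organ identity gene was among them. The alternatives tried comprised centring on the 75th percentile, quantile normalization, other filters (none, 60th percentile), a pseudocount of 8.86, a floor, no trend, a replicate block, the compared arrays alone, a 3' to 5' covariate, fits within a code and each array left out.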

Additional observations from a re-analysis of the deposited data

Results flagged for a closer look

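Over 41 groups of 4 arrays (33 in flower and the 8 in stem with a value above the dim limit), 3 values stood apart from the others of their group by more than Dixon's 95% critical value of 0.829, all in flower. Chance alone sets about 5% of groups apart. AT3G28980 had 1363 on flower GC 2 against 845 on the next array, and AT5G53820 had 419 on flower GC 2 against 320. AT5G22430 had 1222 on flower GH 1 against 1541 on the next.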

How the results depend on the processing

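The number of genes was 33 as reported, 33 to 35 without any 1 array, 53 with no floor, 9 with a floor at the 60th percentile, 75 at 4 times and 9 at 16 times the leaf and stem signal. No gene was called between GH and GC in flower in any of 21 alternatives, and the 10 largest differences kept their direction in all of them. The median difference was -0.41 to -0.20 without 1 array, the lower value without flower GC 1. The count wholly below GC was 17 with quantile normalization, 19 with centring and 20 to 23 without 1 flower array, alternatives added after the data were seen, where 30.9% to 34.1% of all probe sets kept lay below without 1 flower array. All probe sets called numbered 9 with a pseudocount, 1 with no trend, 0 on the flower arrays alone and 0 to 10 without 1 array (10 without flower GC 2, 0 without any 1 stem or leaf GH array). Between stem and leaf, 6 of the 33 genes were called as reported, beside 39.6% of all probe sets. Of these 6, 4 had every leaf and stem signal under the dim limit, and AT1G10770 had only stem GC 1 above it. The count was 1 with the floor (39.1% of all probe sets), 2 on the compared arrays alone, 3 with the 3' to 5' covariate and 4 to 9 without 1 array. The median over the 33 genes was 0.56 as reported, 0.21 with a pseudocount, -0.020 with the floor and 0.34 with the covariate. It was 0.15 to 0.59 without 1 array (lowest without leaf GH 1, then 0.18 without leaf GC 1). The choice of genes capped both organs and most of these values were dim, so the counts and medians are not read as a direction. The floor sets values under the dim limit equal. With it, 4 genes had a fitted value below 0: AT5G61720 (-0.033), AT3G26110 (-0.029), AT1G68875 (-0.011) and AT1G10770 (-0.030). In AT5G61720, AT3G26110 and AT1G68875 every leaf and stem signal was under the limit, so no difference between the floored organs was left. The same holds for AT1G75880, whose -0.020 is the floored median. In AT1G10770 only stem GC 1 stayed above the limit, at 28.7. The model fits 1 code term over all arrays, flower included, so these values are not read as a turn of sign. AT2G20870 also lost its call in limma with the covariate (adjusted p = 0.0556). All probe sets called between stem and leaf numbered 3027 on GC arrays only, 3980 with a replicate block and 4923 to 6247 without 1 array. Arrays that share a replicate number did not deviate together over the probe sets kept as a whole (r = 0.02 in flower and 0.03 in stem). Whether such arrays shared a batch or harvest was not tested. With the replicate block 0 of the 33 genes were called in flower, as without it, and the median difference was -0.26. The cause of these shifts was not tested.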
